A study of Rattus norvegicus with 8 samples.

Results

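The respiratory chain and ATP synthase of rat liver were followed through the genes for their nuclear-encoded subunits. The members were all probes whose accession maps to a rat symbol that starts with Nduf, Uqcr, Cox4, Cox5, Cox6, Cox7, Cox8 or Atp5, or is Sdha, Sdhb, Sdhc, Sdhd, Cyc1 or Cycs. This gave 106 probes for 83 genes, of 30367 probes on the array and 15168 named genes. Of the 83, 82 genes had a probe that cleared background on 3 or more of the 8 arrays and were tested. The exception was Cox8c, a testis form of a complex IV subunit, which was above background on 0 arrays. Cyc1, Cox7a1 and Ndufa4l2 had no probe mapped to their symbol and were not analysed here.

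The study set livers of male rats with non-alcoholic fatty liver disease (NAFLD), fed a high-fat diet for 14 weeks, against livers of male rats fed standard chow for the same time. There were 5 high-fat and 3 chow livers, from rats 22 weeks old, and the strain is not given in the sources used here. Each liver's total RNA was labelled with 1 dye and hybridised to 1 array. Nothing in the labels states that the samples came from separate animals, and p-values therefore cover the spread among the samples as deposited, which may be technical.

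Most electrons from food reach oxygen through this chain. Complex I takes them from NADH, complex II from succinate, and ubiquinone passes them to complex III. Cytochrome c carries them to complex IV, where oxygen is reduced. The proton gradient built on the way drives ATP synthase. Most subunits are encoded in the nucleus, and a small core is encoded in mitochondrial DNA. In liver the chain pays for glucose, urea and lipid synthesis and burns the fatty acids that reach the organ.

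The hepatocyte markers Alb, Apoa1, Ttr, Tf, Serpina1, Cps1, Hnf4a and Fgb were all above background, and 8 of 8 had a lower mean in high-fat livers, with a median log2 difference of −0.37 and 0 past the threshold (limma; 3 lower and 0 higher at an unadjusted p under 0.05). Their summed level ran from 568 to 667 in high-fat livers, against 590 to 976 in chow livers, in units of each array's 75th percentile signal. Over all features, 50.5% had the lower mean and 9.37% were lower at an unadjusted p under 0.05 (limma). In the brightest of 10 equal bins of features by signal, these shares were 79.0% and 24.7%, and the median log2 difference was −0.24. The part of brightness in the markers' values was not tested. Of 3 skeletal muscle markers measured, 2 were higher in high-fat livers, Ckm by 1.85 on the log2 scale (limma, adjusted p = 0.0029) and Acta1 by 1.54 (limma, adjusted p = 0.0355), and their part in the members' values was not tested. The other, Myl1, differed by −0.03 (limma, adjusted p = 0.978) and was above background on every array. Ckm and Acta1 were above background on 5 high-fat and 0 chow arrays, which gives at least 3.31-fold and at least 1.43-fold higher levels. Both thus entered the test through the high-fat arrays alone, and their p-values do not allow for that selection. Both probes were dim, and over all features the median log2 difference in the dimmest bin was 0.51. Of all probes, 66.9% to 71.7% were above background on each chow array, against 79.0% to 92.7% on each high-fat array. In bulk tissue, fewer cells of a type and less RNA per cell cannot be told apart. Arrays that shared a scan time were taken to lie on the same slide, and no slide label was read. By this rule the arrays lay on 3 slides, each holding livers of a single diet, and the slide cannot be told apart from the diet. High-fat arrays 2, 3 and 5 were on one slide and the 3 chow arrays on another, both scanned on the same day, and high-fat arrays 1 and 4 were scanned on a different day. The 75th percentile signal was 725 to 1045 on high-fat arrays, against 278 to 559 on chow arrays.

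Across the 82 measured members, high-fat livers had the lower mean for 67 and the higher mean for 15, with a median log2 difference (high fat minus chow) of −0.23, against −0.01 over all 22871 features tested. With normexp background correction the median over all features was −0.29 and the members' was −0.11, so that relative to all features the members stood at 0.18, the opposite side. Few of these differences passed the test: 1 member was lower, Ndufb7, and 2 were higher, Cox7c and the pseudogene Cox6c-ps1. Over all features, 0.49% were called lower and 3.07% higher, 3.56% in all, by the same rule, a limma fit with Benjamini-Hochberg adjusted p under 0.05. Members whose arrays did not overlap between diets numbered 25 on the lower side, 30.5% of the 82, where the share over all features was 9.17%, and 3 on the higher side, where it was 7.94%. At an unadjusted p under 0.05, 23 members were lower (9.37% of all features) and 3 were higher (10.8% of all features).

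The members are mostly bright probes, and features with bright probes mostly had the lower mean in high-fat livers with the 75th percentile scaling. When features were cut into 10 equal bins by brightness, 60 of the 82 members were in the brightest bin, where the median log2 difference over the other 2227 features was −0.24 and 78.7% of them were lower. The 60 members had a median of −0.29, with 55 lower. None of the 60 was called lower (limma; 18 lower at an unadjusted p under 0.05), where 0.962% of the features in that bin were called lower and 24.7% were lower at that unadjusted p. Non-overlapping lower values were found for 20 of the 60, or 33.3%, against 22.8% of the other 2227 features, and the share over the whole bin was 23.0%. Measured from the median of its own bin, the median member stood at −0.05, with 45 of 82 below it. The 10 members outside the 2 brightest bins had a median of 0.17. Over all features, the median of the dimmest bin was 0.51.

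**Figure D1:**
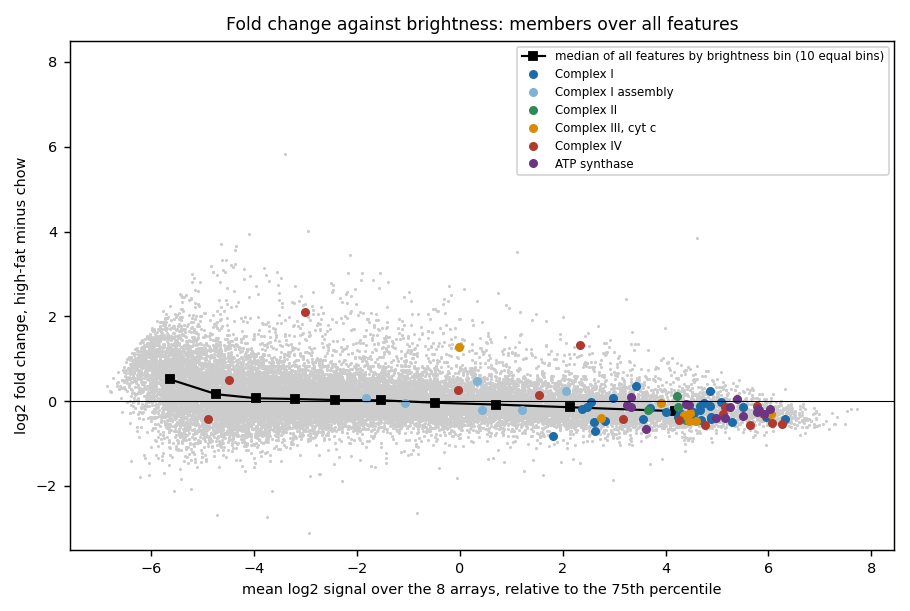
Log2 difference (high fat minus chow) of each feature, on the y axis, against its mean log2 signal over the 8 arrays, on the x axis, with all features in grey, members coloured by complex and black squares for the median of all features in each brightness bin. Members sit mainly at the bright end, where the median of all features was −0.24.

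Promoters are printed for the called subunits Ndufb7 and Cox7c and for Uqcrq and Ndufaf4, which had the highest differences of their groups, from RefSeq on the GRCr8 build, 250 bases before to 50 after the start. Of the 83 genes, 73 matched an entry. The motifs searched on both strands were NRF1 (GCGCA, any base, then GCGC), ETS CCGGAAG, YY1 AAGATGG and ERR AAGGTCA, and capitals mark a match on either strand. NRF1 matched 19.2% of the 73 promoters, against 4.25% of all 33469 promoters of that length. ETS matched 30.1% against 8.75%, YY1 21.9% against 7.01% and ERR 12.3% against 4.61%. A match is a description of the letters and not a site. Ndufb7 is at chr19:41477242-41477541 (minus strand), Cox7c at chr2:18579121-18579420 (minus strand), Uqcrq at chr10:38089929-38090228 (minus strand) and Ndufaf4 at chr5:43401545-43401844 (plus strand).
Ndufb7: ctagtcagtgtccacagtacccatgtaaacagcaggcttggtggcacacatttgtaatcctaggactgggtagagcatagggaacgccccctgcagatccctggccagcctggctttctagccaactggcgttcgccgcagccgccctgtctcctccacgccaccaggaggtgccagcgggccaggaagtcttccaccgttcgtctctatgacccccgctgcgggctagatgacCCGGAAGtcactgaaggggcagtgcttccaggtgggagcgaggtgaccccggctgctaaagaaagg
Cox7c: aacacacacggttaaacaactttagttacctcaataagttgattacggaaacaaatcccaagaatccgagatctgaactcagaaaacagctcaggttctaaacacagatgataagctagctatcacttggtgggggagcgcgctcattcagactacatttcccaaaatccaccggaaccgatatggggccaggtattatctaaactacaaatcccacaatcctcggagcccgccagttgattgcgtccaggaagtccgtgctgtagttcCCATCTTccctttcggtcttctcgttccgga
Uqcrq: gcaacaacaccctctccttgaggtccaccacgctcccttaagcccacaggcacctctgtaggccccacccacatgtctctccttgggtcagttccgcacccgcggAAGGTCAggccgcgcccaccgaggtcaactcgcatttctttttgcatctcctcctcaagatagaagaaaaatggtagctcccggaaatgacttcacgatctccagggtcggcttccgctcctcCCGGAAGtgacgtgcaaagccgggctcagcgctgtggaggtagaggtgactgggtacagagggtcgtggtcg
Ndufaf4: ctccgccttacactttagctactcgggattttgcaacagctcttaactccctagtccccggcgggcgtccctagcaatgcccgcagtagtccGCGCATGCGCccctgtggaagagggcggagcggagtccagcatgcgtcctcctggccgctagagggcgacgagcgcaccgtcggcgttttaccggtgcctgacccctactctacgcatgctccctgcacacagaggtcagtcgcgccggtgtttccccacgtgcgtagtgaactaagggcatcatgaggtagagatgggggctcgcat

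Ndufb7 carries 1 ETS match, Cox7c 1 YY1 match in its reverse letters, Uqcrq 1 ETS and 1 ERR match, and Ndufaf4 an NRF1 match. Between members with and without a match, the median log2 difference was −0.21 with NRF1, against −0.26 without, −0.21 with ETS against −0.26, −0.28 with YY1 against −0.22, and −0.14 with ERR against −0.29.

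Complex I, the NADH entry point, was the largest group, with 32 subunit genes measured, Ndufa4 among them by its symbol. Of these, 29 had the lower mean in high-fat livers, with a median of −0.29, which stayed below 0 under every scaling tried, the nearest being −0.07 with cyclic loess, but lay above the median of all features with normexp (−0.18 against −0.29). In 10 of them, or 31.25%, the diets did not overlap, all on the lower side. The lower-side share was 9.17% over all features and 23.0% in the brightest bin. At an unadjusted p under 0.05 (limma), 9.37% of all features and 24.7% of that bin were lower. Only Ndufb7, an accessory subunit of the membrane arm, passed the test (0 were called higher, and 11 were lower at an unadjusted p under 0.05). It read 2.46, 2.35, 2.42, 2.13 and 2.51 in high-fat livers 1 to 5, against 3.10, 2.89 and 3.21 in chow livers, as log2 signal over each array's 75th percentile. Every high-fat liver lay under every chow liver. The means were 2.37 ± 0.15 (SD, n = 5) in high-fat livers and 3.07 ± 0.16 (SD, n = 3) in chow livers, a difference of −0.69 ± 0.15 (SE), or 1.62-fold lower, with a limma adjusted p of 0.0424. The call did not hold with any single array left out, with adjusted p from 0.063 to 0.151.

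Ndufa10, an accessory subunit related to nucleoside kinases, had the lowest difference of complex I, −0.83 ± 0.31 (SE, limma adjusted p = 0.18). It read 1.54, 1.54, 1.59, 1.38 and 1.42 in high-fat livers, against 2.66, 1.43 and 2.90 in chow livers. Chow liver 2 lay among the high-fat livers and the other two chow livers lay above all of them. Without chow liver 2 the difference was −1.29, with a limma adjusted p of 0.0112. Next to the threshold, and chosen after their values were seen, came 3 members whose diets did not overlap. Ndufa2, an accessory subunit of the NADH module, read 2.34 to 2.48 in high-fat livers, against 2.83 to 3.04 in chow livers (difference −0.49, limma adjusted p = 0.074). Ndufb6, an accessory subunit of the membrane arm, read 4.94 to 5.22 in high-fat livers, against 5.47 to 5.69 in chow livers (difference −0.50, limma adjusted p = 0.087). Ndufs3, a core subunit, read 2.52 to 2.74 in high-fat livers, against 3.08 to 3.14 in chow livers (difference −0.46, limma adjusted p = 0.09).

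Ndufv1, which binds NADH and flavin, read 4.12 to 4.52 in high-fat livers, against 4.60 to 5.00 in chow livers, with no overlap (difference −0.45, limma adjusted p = 0.163). Ndufs1, which carries iron-sulfur clusters beside it, differed by −0.03 (limma adjusted p = 0.935). Ndufa4, now assigned to complex IV but counted here with complex I, differed by −0.42 (limma adjusted p = 0.205). Ndufv3, an accessory subunit beside Ndufv1, differed by −0.43 on its brightest probe, with 2 other probes at −0.35 and 0.04. Ndufab1, the mitochondrial acyl carrier protein, had probes at −0.03 and 0.17, and Ndufs5, an accessory subunit, had probes at 0.24 and −0.12, so the sign of each depended on the probe.

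The complex I assembly factors of the Ndufaf family, which build the enzyme but are not part of it, had 6 genes measured, 3 with the lower and 3 with the higher mean, and a median of 0.01, which turned to −0.07 with quantile normalization. None passed the test (limma; 0 at an unadjusted p under 0.05 in either direction). Ndufaf4, needed early in the assembly of the ubiquinone module, read 0.90, 0.23, 0.18, 0.94 and 0.28 in high-fat livers, against 0.01, 0.13 and −0.05 in chow livers. High-fat livers 1 and 4, scanned on the other day, had a mean of 0.92, against 0.23 for high-fat livers 2, 3 and 5. The diets did not overlap, and the difference was 0.47 (limma adjusted p = 0.283). One of its 3 other probes, all dimmer, had the opposite sign, at −0.26. Ndufaf5, which modifies the core subunit Ndufs7, had the lowest difference, −0.22 with no overlap (limma adjusted p = 0.355). Ndufaf3, a partner of Ndufaf4, differed by −0.20.

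**Figure D2:**
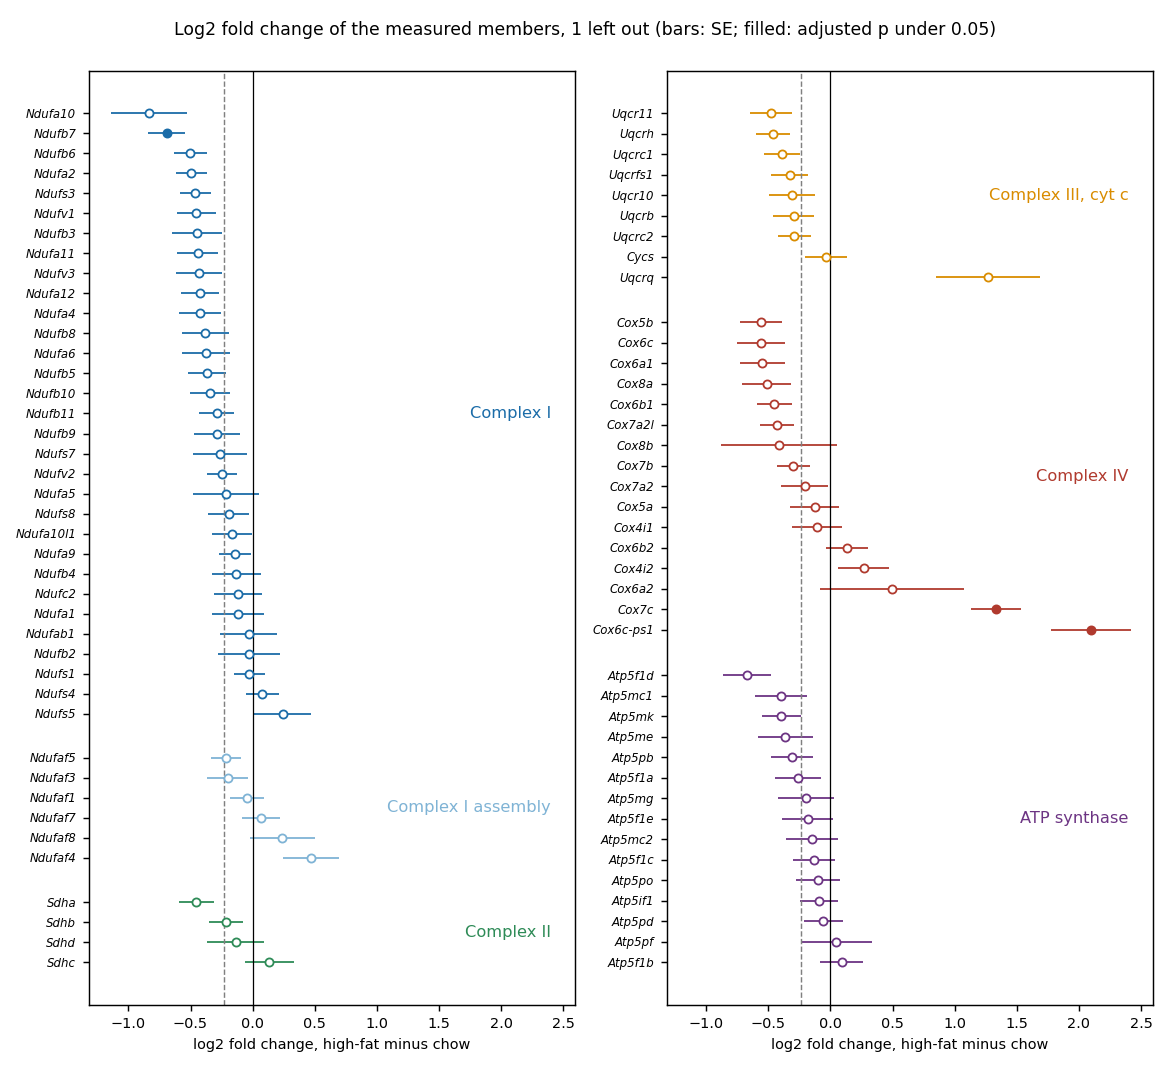
Log2 difference (high fat minus chow), on the x axis, of the measured members, 1 left out, with standard errors, grouped by complex, with filled points past the test and a dashed line at the members' median. Most points of complex I lie below 0, and Cox6c-ps1, Cox7c and Ndufb7 are the 3 that passed the test.

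Complex II, which also serves as succinate dehydrogenase of the citric acid cycle, had 4 subunits measured, 3 with the lower mean in high-fat livers, with a median of −0.18 that turned to 0.01 with quantile normalization and 0.02 with cyclic loess. Sdha, the flavoprotein that oxidises succinate, read 4.36, 4.21, 4.20, 4.16 and 4.23 in high-fat livers, against 4.78, 4.46 and 4.82 in chow livers. The diets did not overlap, and the difference of −0.46 had a limma adjusted p of 0.122. Sdhb, the iron-sulfur subunit, differed by −0.22, and the membrane anchors Sdhd and Sdhc by −0.14 and 0.13. None of the 4 passed the test (limma; 1 lower at an unadjusted p under 0.05, against 9.37% of all features and 24.7% of the brightest bin). All 4 lay in the brightest bin. Sdha was the 1 gene of the 4 without overlap, where the lower-side share was 23.0% of that bin and 9.17% of all features.

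Complex III and cytochrome c had 9 genes measured, 8 with the lower mean in high-fat livers, with a median of −0.31. In 5 the diets did not overlap on the lower side, or 55.6%, against 23.0% of the brightest bin and 9.17% of all features. The median stayed below 0 under every scaling tried, the nearest being −0.02 with normexp and quantile normalization together, and lay above the median of all features with normexp (−0.19 against −0.29). None passed the test (limma; 3 lower and 1 higher at an unadjusted p under 0.05). At that p, 9.37% of all features were lower and 10.8% higher, and 24.7% of the brightest bin were lower. Uqcr11, a small accessory subunit, differed by −0.48 (limma adjusted p = 0.164) on its brightest probe and by −0.27 and −0.21 on the others, and Uqcrh, the hinge protein that meets cytochrome c, differed by −0.46 (limma adjusted p = 0.11). The core proteins Uqcrc1 and Uqcrc2 and the iron-sulfur subunit Uqcrfs1 also had no overlap, as seen after their values were known, at −0.39, −0.29 and −0.33. Cycs, cytochrome c itself, differed by −0.04 (limma adjusted p = 0.931). Uqcrq, another small subunit, was the one gene of this group with the higher mean in high-fat livers. It read 0.97, 1.11, 0.03, 0.36 and −0.14 in high-fat livers, against −0.69, −1.67 and −0.06 in chow livers. Its arrays overlapped at high-fat liver 5, and the difference was 1.27 ± 0.42 (SE, limma adjusted p = 0.141), and 0.84 without chow liver 2.

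Complex IV, cytochrome c oxidase, had 16 genes measured, 11 with the lower mean in high-fat livers, with a median of −0.25, which was −0.04 with quantile normalization and 0.004 with cyclic loess. In 6 of them the diets did not overlap on the lower side, and in 2 on the higher side, the ones that passed the test (limma; 6 lower and 2 higher at an unadjusted p under 0.05). Over all features, 9.17% did not overlap on the lower side and 7.94% on the higher side. In the brightest bin 23.0% did not overlap on the lower side. At an unadjusted p under 0.05 (limma), 9.37% of all features were lower and 10.8% higher, and 24.7% of the brightest bin were lower. Cox7c, a small membrane subunit, read 3.38, 2.79, 2.68 and 2.80 in high-fat livers 1, 2, 3 and 5, against 1.52, 1.59 and 1.63 in chow livers. The spot of high-fat liver 4 was marked an outlier by the scanner software, and the fit left that value out. The means were 2.91 ± 0.31 (SD, n = 4) in high-fat livers and 1.58 ± 0.06 (SD, n = 3) in chow livers. The difference of 1.33 ± 0.20 (SE), or 2.51-fold higher, had a limma adjusted p of 0.0147, which was 0.0662, 0.0559 and 0.0551 without chow liver 1, 2 and 3.

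Cox6c-ps1, a processed copy of Cox6c annotated as a pseudogene, had the largest difference of the 82 members. It read −1.83, −2.61, −2.70, −1.44 and −2.49 in high-fat livers, against −4.28, −4.66 and −3.99 in chow livers. The difference was 2.10 ± 0.32 (SE), or 4.27-fold higher, with a limma adjusted p of 0.0114, and it was above background on 5 high-fat and 2 chow arrays. With normexp background correction it was 0.64 with an adjusted p of 0.228, and without chow liver 2 the adjusted p was 0.0532. A probe for a near-identical copy can bind the parent's RNA, so its identity is uncertain. Cox6c itself, a subunit of the complex, differed by −0.56 ± 0.19 (SE, limma adjusted p = 0.163), with no overlap.

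The remaining housekeeping subunits of complex IV lay mainly below 0. Cox5b, a subunit on the matrix side, read 5.28 to 5.49 in high-fat livers, against 5.63 to 6.19 in chow livers (difference −0.56, limma adjusted p = 0.115). Cox6a1, the widely used form of subunit 6a, differed by −0.55 (limma adjusted p = 0.145), Cox8a by −0.51 (limma adjusted p = 0.196) and Cox7a2l, which links complexes III and IV in supercomplexes, by −0.43 (limma adjusted p = 0.138). Cox6b1 differed by −0.45 (limma adjusted p = 0.13) on its brightest probe, by −0.42 on another bright probe and by 0.28 on a dim one. Cox4i1 differed by −0.11. Cox7a2 differed by −0.21 on its brightest probe and by −0.54 on the other, which was also above background on all 8 arrays.

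The tissue-restricted forms gave no call. Cox6a2, the heart and muscle form, differed by 0.50 (limma adjusted p = 0.697) and Cox8b, also a muscle form, by −0.42 (limma adjusted p = 0.683). Both were dim, and Cox8b was above background on 3 high-fat and 1 chow arrays. Beside them, the summed skeletal muscle markers ran from 0.19 to 0.28 in high-fat livers, against 0.09 to 0.11 in chow livers. Of these markers Ckm and Acta1 were higher, both above background on high-fat arrays only. Myl1 differed by −0.03, and the part of the muscle markers in these values was not tested. Cox4i2, the form of lung, differed by 0.27 (limma adjusted p = 0.513), and Cox6b2, the testis form, by 0.14 (limma adjusted p = 0.716).

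ATP synthase had 15 genes measured, 13 with the lower mean in high-fat livers, with a median of −0.18 that turned to 0.02 with quantile normalization and 0.06 with cyclic loess, and 2 without overlap. Those 2 were lower in high-fat livers, 13.3% of the 15, against 23.0% of the brightest bin and 9.17% of all features. None of the 15 passed the test (limma; 2 lower at an unadjusted p under 0.05, against 9.37% of all features and 24.7% of the brightest bin). Atp5f1d, the delta subunit of the central stalk, read 3.55, 3.27, 2.98, 3.62 and 3.45 in high-fat livers, against 4.12, 3.76 and 4.25 in chow livers, with no overlap. Its difference was −0.67 ± 0.19 (SE, limma adjusted p = 0.107). Atp5mc1, a gene for the proton-carrying ring, differed by −0.40 (limma adjusted p = 0.329), with −0.61 without chow liver 2 and −0.20 without chow liver 3. Atp5mk, a small membrane subunit and the other gene without overlap, read 4.72 to 5.22 in high-fat livers, against 5.24 to 5.48 in chow livers (difference −0.40, limma adjusted p = 0.209). The alpha and beta subunits of the catalytic head, Atp5f1a and Atp5f1b, differed by −0.26 and 0.09, and Atp5if1, the inhibitor of ATP hydrolysis, by −0.09. The peripheral stalk subunits Atp5pb, Atp5pd, Atp5pf and Atp5po differed by −0.31, −0.06, 0.05 and −0.10. For Atp5mg the value of chow liver 1 was left out of the fit as an outlier spot.

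**Figure D3:**
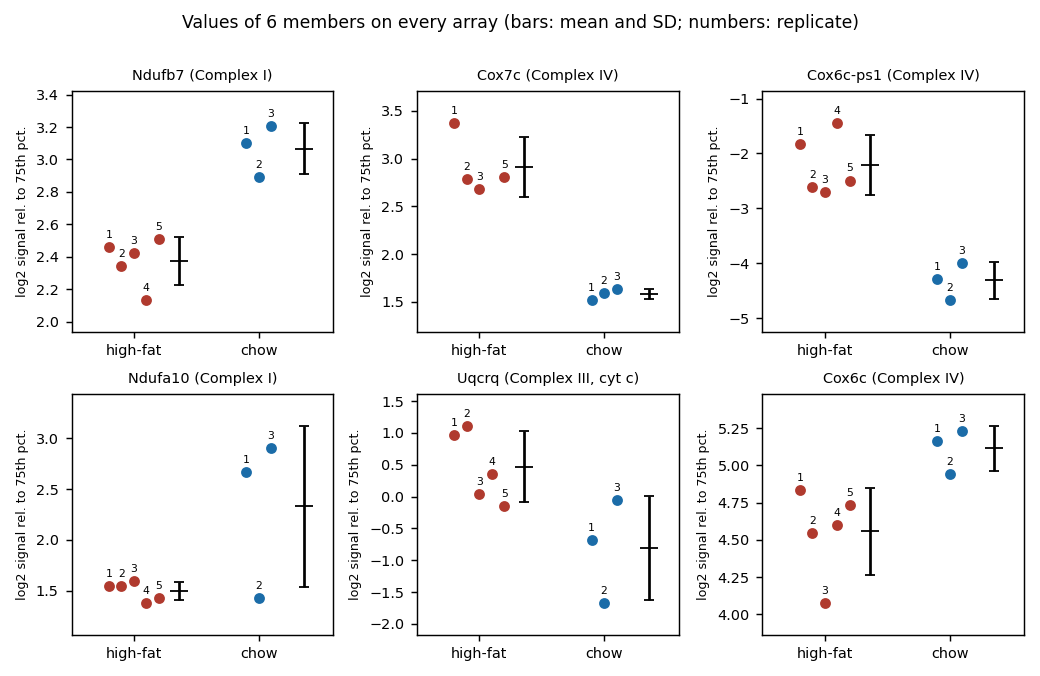
Log2 signal relative to the array's 75th percentile of Ndufb7, Cox7c, Cox6c-ps1, Ndufa10, Uqcrq and Cox6c, with 1 point per array, high-fat livers left and chow livers right, and bars for the mean and SD. Ndufb7 and Cox6c lie lower on all 5 high-fat arrays than on any chow array, and Cox6c-ps1 and Cox7c lie higher on all measured ones.

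Genes that make or run the chain without being subunits gave 0 calls in each list (limma). Over all features, 9.37% were lower and 10.8% higher at an unadjusted p under 0.05 (limma). Of 37 measured assembly factors outside the rule, 23 had the lower mean in high-fat livers, with a median of −0.11, and at an unadjusted p under 0.05 there were 4 lower and 1 higher. They ran from Dmac1, which helps build the complex I membrane arm, at −0.49 ± 0.16 (SE, limma adjusted p = 0.146) to Higd1a, a hypoxia-inducible protein, at 0.73 ± 0.22 (SE, limma adjusted p = 0.118). Of 19 measured regulators of mitochondrial biogenesis, 13 had the lower mean, with a median of −0.13, and at an unadjusted p under 0.05 there were 3 lower and 1 higher. Mterf3, which acts on mitochondrial transcription and ribosomes, was the lowest at −0.66 ± 0.15 (SE, limma adjusted p = 0.0558). The DNA-binding factors Nrf1, Gabpa, Esrra and Tfam differed by −0.28, −0.13, 0.05 and 0.13. The coactivator Ppargc1b differed by 0.58 (limma adjusted p = 0.255), with the diets overlapping. Its probe was dim and above background on 0 chow arrays, and the median over all features in the dimmest bin was 0.51. Ppargc1a did not clear background and was not tested. Of 19 measured genes of ubiquinone synthesis and electron entry, 10 had the lower mean, with a median of −0.02, and at an unadjusted p under 0.05 there were 2 lower and 0 higher. They ran from Coq8a, an atypical kinase of ubiquinone synthesis, at −0.67 (limma adjusted p = 0.285) to Coq5, a methyltransferase of the pathway, at 0.49 (limma adjusted p = 0.297). The 13 mitochondrially encoded subunits had no mapped probe and were not analysed here.

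Array by array, the mean over all members moved with that of the brightest features. Averaged over the 82 members and taken from each gene's own mean, the values were 0.06, −0.09, −0.27, 0.10 and −0.11 in high-fat livers 1 to 5, against 0.15, −0.09 and 0.25 in chow livers. The 2287 features of the brightest bin gave 0.06, −0.11, −0.24, 0.09 and −0.16 in high-fat livers, against 0.15, −0.04 and 0.25 in chow livers. Complex IV departed from that bin, at 0.09 in high-fat liver 5 and −0.33 in chow liver 2. Its mean deviation was −0.0001 in high-fat and in chow livers, beside its median log2 difference of −0.25. High-fat array 3 was the lowest for the members and had the highest 75th percentile signal of all arrays, and chow array 2 was the lowest and brightest of its group. Among the high-fat arrays alone, the arrays of the second scan day minus those of the first gave a median of 0.27 over the members, with 72 of 82 positive, and 0.23 over the other features of the brightest bin. The part of array brightness and scan day in the members' differences between diets was not tested.

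**Figure D4:**
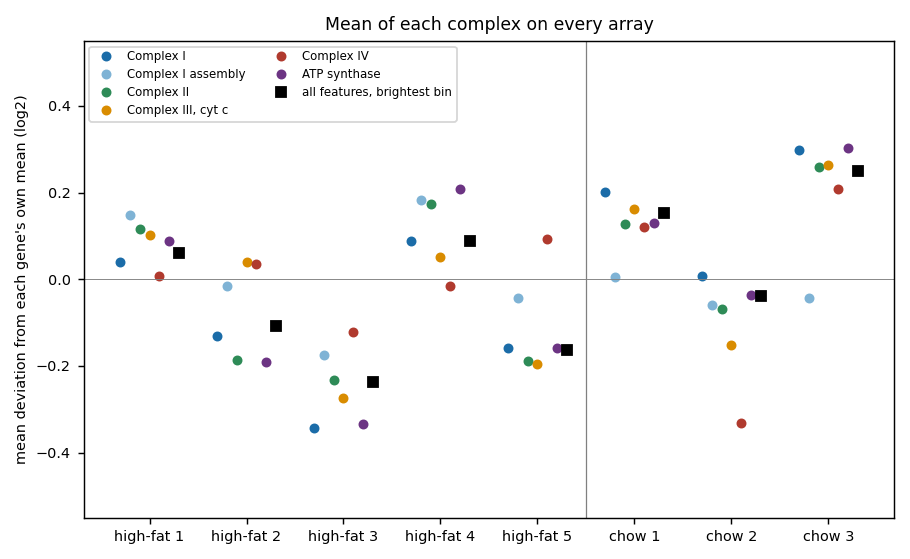
Mean of each complex's members on each array, as deviation from each gene's own mean (log2), with all features of the brightest bin as squares. On high-fat array 3 every complex lies below 0, and on chow array 2 complex IV is the lowest, at −0.33.

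The size of the shift depended on how the arrays were scaled. The members' median was −0.23 with the 75th percentile, −0.057 with quantile normalization and −0.035 with cyclic loess. The authors' value table, whose arrays share a 75th percentile and nearly a median, also gave −0.057. It may not be a scaling separate from quantile normalization. Over all features the split of calls was 703 higher and 112 lower with the 75th percentile, against 798 and 294 with quantile normalization, and 1038 and 1077 with normexp and quantile normalization together. With only the high-fat arrays of the other scan day, the split was 998 and 981. Under quantile normalization, cyclic loess and the authors' table, Ndufb7 no longer passed (adjusted p of 0.0769, 0.0789 and 0.0807), and Cox7c and Cox6c-ps1 still did. With slide as a random block none of the 82 passed (limma; 2 higher and 3 lower at an unadjusted p under 0.05), and the adjusted p was 0.538 for Ndufb7, 0.114 for Cox7c and 0.0882 for Cox6c-ps1. With only the high-fat arrays scanned on the day of the chow arrays, the members' median was −0.37 against 0.09 over all features, and Ndufb7, Cox7c and Cox6c-ps1 passed (adjusted p of 0.0362, 0.00387 and 0.00444). With only the high-fat arrays of the other day, the median was −0.085 against −0.13 over all features, and Ndufb7 had an adjusted p of 0.0652.

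**Figure D5:**
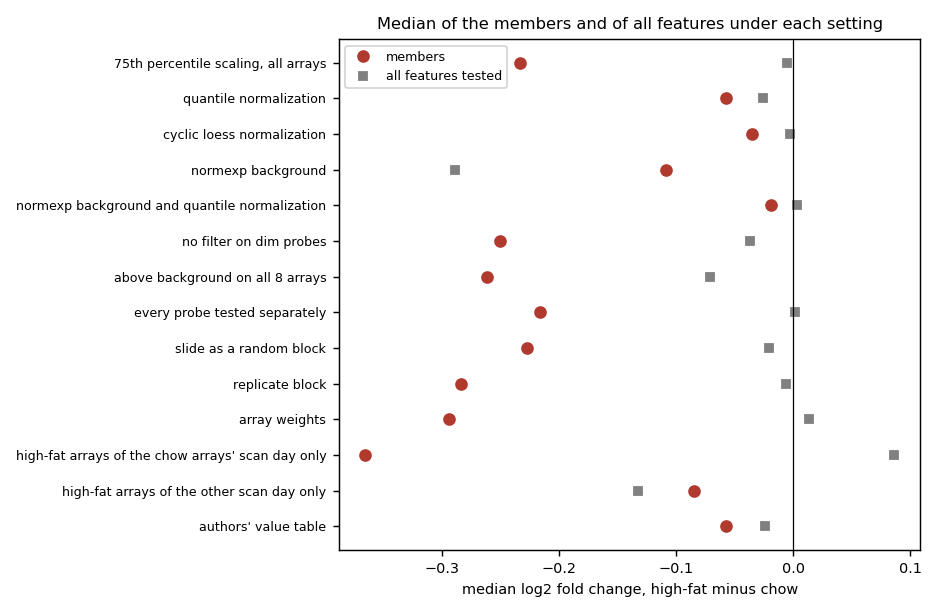
Median log2 difference (high fat minus chow), on the x axis, of the members (circles) and of all features tested (squares) under each processing setting, listed down the page. The members' median lies between −0.37 and −0.02 over these settings.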

How the data were processed

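Total RNA of 8 rat livers was hybridised to 1-colour Agilent arrays. Per the submitters' processing notes, the deposited scanner files, with processed signal intensity and spot flags, come from Agilent Feature Extraction 11.0.1.1. The authors' deposited value table holds log2 values, with a median of 6.42 on every array, and matched the scanner values with r from 0.995 to 0.999. Its arrays also shared the same 75th percentile (gap 0.0), and the members' median from it was near that with quantile normalization (−0.05739 against −0.05742). How the authors scaled it is not given in the sources used here. The arrays' number limits the precision.

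Outlier spots were left out, spots of a probe were averaged, and log2 signal was taken minus each array's 75th percentile. Probes stayed in where 0.5 or more of their spots were above background on 3 or more of the 8 arrays, and the probe with the highest mean stood for its gene. The 22871 features were tested with limma 3.58.1 in R 4.3.3 (lmFit and eBayes, two-sided, Benjamini-Hochberg over all features, threshold 0.05). Simulated data had these group sizes, with independent noise, no slide or scan-day effect and few features changed. In them 28.4% of 2-fold changes and 86.4% of 4-fold changes were recovered, and 1.49% of 1.5-fold changes.

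Named were every member past the threshold, the 2 lowest and the highest of each complex, members whose probes differ in sign, and a fixed list of core subunits, isoforms and regulators. Members and lists were chosen with earlier results of these data known. Normexp, offset 50, used median spot signals, since mean signals were not in the files, and the alternatives also covered other normalizations, dim-probe filters, slide and replicate blocks, array weights, scan days and each array left out. Same-numbered samples did not pair (correlations of deviations 0.05, 0.03 and 0.07). Among the markers of cells other than hepatocytes, Kupffer cell, endothelial, stellate, cholangiocyte, lymphocyte, erythroid, adipose and pancreas lists had 0 calls each (limma; 0 to 1 higher and 0 to 2 lower per list at an unadjusted p under 0.05). One member of complex I is counted in the totals and not reported here by itself.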

Additional observations from a re-analysis of the deposited data

Results flagged for a closer look

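Among 39 named members tested for an array far from the others, 2 were flagged, and chance flags about 1 in 20 groups. Cox5b read 5.281 in high-fat liver 3, where the other high-fat livers read 5.457 to 5.492, a gap of 0.835 of the range against a critical value of 0.71. Cox6b1 read 4.234 in high-fat liver 5, where the others read 4.017 to 4.076, a gap of 0.729 of the range.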

How the results depend on the processing

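Of 815 values of the 39 named members under alternatives, 712 kept their direction and their side of the threshold, 24 lost the call, 19 gained it and 60 changed sign, 1 of these past the threshold in one of its settings. The number of features called was 815 with the 75th percentile scaling, 486 above background on all 8 arrays, 1295 with cyclic loess, 149 with normexp, 2115 with normexp and quantile normalization together, 2502 with array weights, 2902 with the high-fat arrays of the chow arrays' scan day, 1979 with those of the other day, 84 with slide as a random block (correlation 0.45) and 374 to 789 with 1 array left out (455 without high-fat array 2, and 374, 440 and 432 without chow array 1, 2 and 3). Members called higher were 2 with the 75th percentile scaling, 0 above background on all 8 arrays, where Cox7c and Cox6c-ps1 were not in the test, 1 with normexp, 4 with normexp and quantile normalization and with the other scan day, 0 with slide as a random block (2 at an unadjusted p under 0.05), and 0 to 2 with 1 array left out. Members called lower were 1 with that scaling, 0 with quantile normalization (11 at an unadjusted p under 0.05), 0 with cyclic loess (6), 0 with normexp (13), 0 with the authors' table (10), 0 with slide as a random block (3), 4 with normexp and quantile normalization, 15 with array weights, 3 with the chow arrays' scan day, and 0 to 1 with 1 array left out. The members' median was −0.0574 with quantile normalization and the authors' table, −0.0351 with cyclic loess, −0.0192 with normexp and quantile normalization, and −0.33 to −0.19 with 1 array left out. With the replicate block, whose numbers do not pair the samples, 4 features and 0 members in either direction were called (3 higher and 2 lower members at an unadjusted p under 0.05), and 4 of 6 arrays correlated best with their own number. With slide as a random block, Cox7c had an adjusted p of 0.114, Cox6c-ps1 0.0882 and Ndufb7 0.538. The cause of the changes of sign was not tested. With quantile normalization, log2 differences that changed sign were Atp5if1 0.0551, Cox4i1 0.16, Cox7a2 0.0431, Cycs 0.15, Ndufab1 0.16, Ndufs1 0.0976 and Sdhd 0.0648. With cyclic loess, log2 differences that changed sign were Atp5f1a 0.00707, Atp5if1 0.0747, Cox4i1 0.16, Cox7a2 0.0635, Cycs 0.16, Ndufab1 0.19, Ndufs1 0.11 and Sdhd 0.071. With the authors' table, log2 differences that changed sign were Atp5if1 0.0549, Cox4i1 0.16, Cox7a2 0.0437, Cycs 0.15, Ndufab1 0.16, Ndufs1 0.095 and Sdhd 0.066. With normexp, log2 differences that changed sign were Atp5if1 0.0646, Cox6a2 −0.33, Cox7a2 0.0401, Cycs 0.32, Sdhb 0.0175 and Sdhd 0.00977. With normexp and quantile normalization together, log2 differences that changed sign were Atp5f1a 0.0399, Atp5if1 0.12, Cox4i1 0.0438, Cox7a2 0.18, Cycs 0.39, Ndufa4 0.0881, Ndufab1 0.0342, Ndufv3 0.00988, Sdhb 0.0892 and Sdhd 0.0968. With the high-fat arrays of the chow arrays' scan day, log2 differences that changed sign were Cox8b 0.20 and Sdhc −0.0391. With the high-fat arrays of the other scan day, log2 differences that changed sign were Atp5if1 0.0556, Cox4i1 0.11, Cox4i2 −0.0628, Cox6a2 −0.28, Cox7a2 0.0544, Cycs 0.13, Ndufab1 0.38, Ndufs1 0.0307 and Sdhd 0.29. With slide as a random block, log2 differences that changed sign were Ndufab1 0.0124. With 1 array left out, the ranges of those that changed sign were Cox4i1 from −0.28 to 0.00977, Cox6a2 from −0.12 to 0.92, Cox6b2 from −0.0273 to 0.27, Cycs from −0.11 to 0.0596, Ndufab1 from −0.15 to 0.0695 and Ndufs1 from −0.0459 to 0.00315. Without changing sign, leaving out 1 array moved Ndufa10 to between −1.29 and −0.55, Uqcrq to between 0.84 and 1.65, Atp5mc1 to between −0.61 and −0.20, Atp5f1a to between −0.43 and −0.18, Cox7a2 to between −0.33 and −0.11, Cox8b to between −0.66 and −0.18 and Ndufs5 to between 0.11 and 0.40. Signal over background limits Cox8b, above background on 3 high-fat and 1 chow arrays, and Cox6c-ps1, on 5 high-fat and 2 chow arrays.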
